A study of Bos taurus with 6 samples.

Results

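The carriers of solute carrier family 25 (SLC25), which move metabolites across the inner mitochondrial membrane, were followed in bovine blastocysts. The genes were taken by name: every gene whose symbol begins with SLC25A and a number, together with UCP2, an uncoupling protein of the same family. This gave 46 Ensembl genes under 45 symbols, of 36075 genes in the table, because SLC25A24 is listed under 2 identifiers. SLC25A2, SLC25A18, SLC25A35 and SLC25A52 were not analysed here.

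RNA was sequenced from 6 libraries of Bos taurus blastocysts made by in vitro production. In the MT-treated group (n = 3), cumulus-oocyte complexes from slaughterhouse ovaries were matured for 22 h in medium with melatonin (MT) at 1e-07 mol/L, and in the control group (n = 3) they were matured in the same way without MT. Fertilization and embryo culture followed for both groups, so the blastocysts themselves were sampled after the exposure of the oocyte, and each library pooled 3 of them. Values are in TPM, a read count scaled for gene length and for the library's total, so that levels can be compared between genes. TPM keeps no counts, so the depth of each library is unknown from these values and was not used here.

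The carriers are built of a repeated unit of paired membrane helices, and most exchange one substrate for another. ADP/ATP carriers deliver ADP to the ATP synthase and export the ATP made there, and the phosphate carrier brings in the phosphate. Other members move citric acid cycle intermediates, amino acids, cofactors, iron, glutathione and nucleotides, and uncoupling proteins are best known for letting protons or anions pass the membrane. In the early embryo, mitochondria are inherited from the oocyte and supply much of the ATP used in forming the blastocoel.

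Control and MT-treated libraries differed across the whole table, and the carriers have to be read against that. Between 8854 and 8953 genes were above 0 in a control library and between 14372 and 14408 in an MT-treated library. The fit covered 11953 genes that reached 1 TPM in 3 or more libraries. Of these, 95.7% differed by limma at a Benjamini-Hochberg threshold of 0.05, with 61.6% higher and 34.1% lower in MT-treated blastocysts. A gene listed at 0 was absent, not captured or not counted, and these cannot be told apart. Fewer cells of a type and less RNA per cell can likewise not be told apart in pooled embryos.

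Most markers of the blastocyst lineages also moved with the group. Of 6 trophectoderm markers, 5 (KRT18, TFAP2C, GATA3, TEAD4 and CDX2) were higher in MT-treated blastocysts and KRT8 was lower, and CDX2 was at 0 in every control library. The list summed to 11330 to 11670 TPM in control and 10460 to 10810 TPM in MT-treated libraries, a fall that lay in KRT8, with a mean of 8695 TPM in control and 6905 TPM in MT-treated blastocysts. The 3 inner cell mass markers summed to 188 to 191 TPM in control and 206 to 209.9 TPM in MT-treated libraries. Nearly all of that was POU5F1, which overlapped between the groups and was not called (limma adjusted p = 0.223), whereas NANOG was at 0 in every control library and SOX2 reached 0.02 TPM in 1 of them. The 3 hypoblast markers summed to 0.20 to 0.44 TPM in control and 53.5 to 57.5 TPM in MT-treated libraries, with PDGFRA and SOX17 at 0 in every control library.

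Markers of other cells were mostly at or near 0. Of 7 cumulus and granulosa markers, 4 (HAS2, PTX3, TNFAIP6 and INHA) were at 0 in all 6 libraries and CYP19A1 did not exceed 0.01 TPM. The list summed to 149.9 to 157 TPM in control and 121 to 123 TPM in MT-treated libraries, nearly all of it HSD3B1 and FSHR. Of 8 oocyte markers, 5 (GDF9, ZP2, ZP3, ZP4 and NLRP5) were at 0 throughout, and the list summed to 45.5 to 49.3 TPM in control and 21.6 to 24.0 TPM in MT-treated libraries, mostly OOEP. Among the sperm markers, PRM1, ODF1 and AKAP4 were at 0 throughout, whereas TNP1 had 59.6 to 65.0 TPM in control and 0 under MT in each library. The part of these cell types in the carrier values was not tested.

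Of the 46 carrier genes, 34 were above 0 in at least 1 library and 12 were at 0 in all 6. All 34 were above 0 in each MT-treated library, against 19 or 20 in a control library. At 1 TPM or more, 30 carriers were seen in each MT-treated library and 18 in each control library. The 12 genes at 0 throughout included the testis-type ADP/ATP carrier SLC25A31 and the ATP-Mg/phosphate carriers SLC25A23, SLC25A24 (both identifiers), SLC25A25 and SLC25A41. The others were the uncoupling protein relative SLC25A14, the mitoferrin SLC25A28, and SLC25A34, SLC25A45, SLC25A47 and SLC25A48. All 5 identifiers of the ATP-Mg/phosphate subfamily, under 4 symbols, were thus at 0 in both groups.

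**Figure D1:**
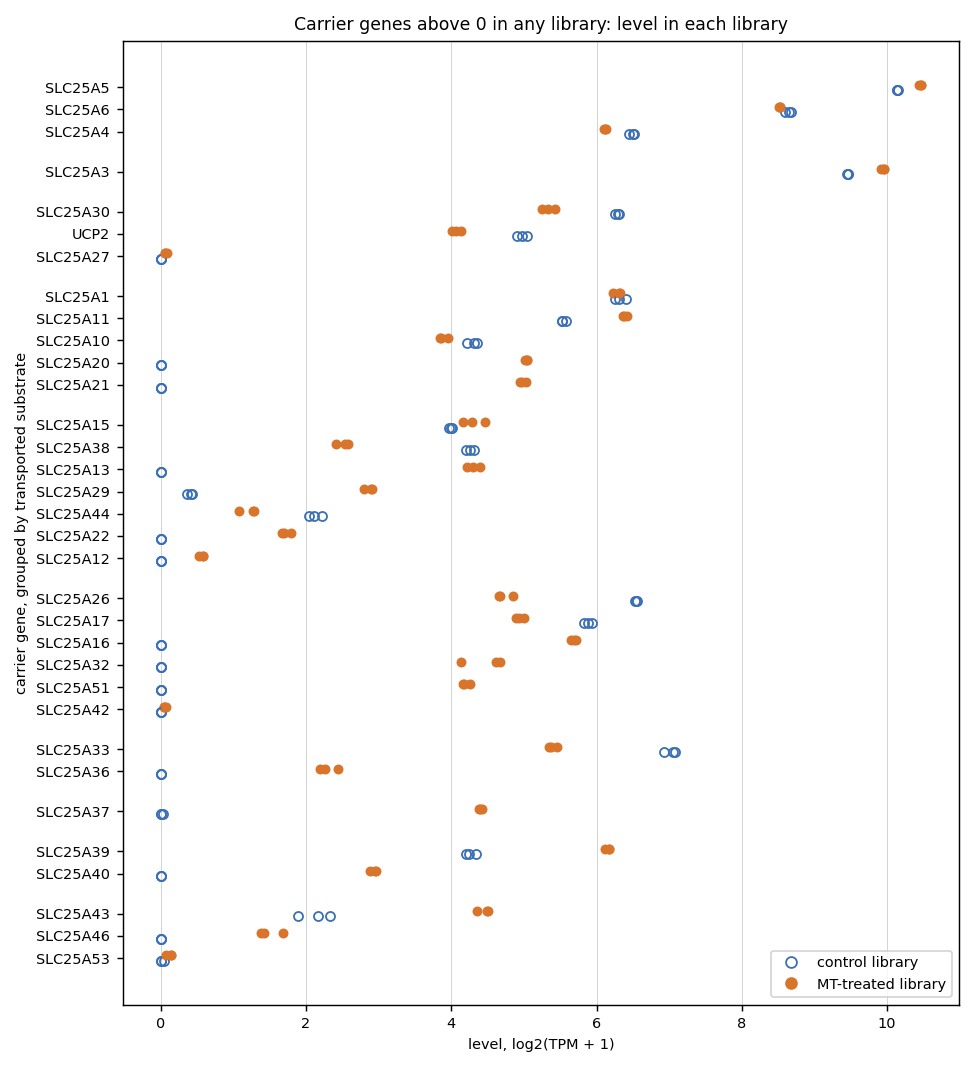
Level of 33 of the 34 carrier genes above 0 in any library, as log2(TPM + 1) on the horizontal axis, with genes in rows grouped by substrate. Open blue circles are the 3 control libraries and filled orange circles the 3 MT-treated libraries. The replicates sit close together, the groups are separate for nearly all genes, and many rows have all their control circles at 0.

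The 30 carriers that reached 1 TPM in at least 3 libraries were tested. Under MT, 19 of these were higher and 10 lower, and SLC25A1 was not called. The shares, 63.3% higher and 33.3% lower, lie near the 61.6% and 34.1% of all tested genes, so the split is no result about the carriers as a group. When a change of 2-fold or more of TPM + 1 was also required, 15 were higher and 3 lower, where 51% and 19.6% of all tested genes were. The groups did not overlap for 29 of the 30, as for 96.1% of all tested genes. The smallest two-sided p that exact permutation of 3 libraries against 3 allows is 0.1.

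Among the tested carriers, 10 (33.3%) were at 0 in every control library, close to the 33.8% of all tested genes. No tested carrier was at 0 in every MT-treated library, against 3.01% of all tested genes. In all, 12 carriers, namely these 10 with SLC25A37 and SLC25A29, entered the fit only through their MT-treated libraries, so their calls as higher follow largely from the filter and no p-value is given for them. The share at 0 differed with the level in MT-treated blastocysts. Of carriers averaging 20 to 100 TPM under MT, 4 of 14 were at 0 in every control library, where 23.8% of all tested genes at that level were. At 5 to 20 TPM it was 3 of 8, against 47.2% of genes, below 5 TPM 3 of 5, against 40.2%, and at 100 TPM or more 0 of 3, against 1.12%.

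The median log2 fold change of the 30 carriers was 1.08, beside 1.12 over all 11953 tested genes, and both medians include genes at 0 in one group, whose fitted value depends on the pseudocount. The medians were 0.0093 and 0.04 after quantile normalization and 0.52 and 0.27 without a filter. For the 19 carriers above 0 in all 6 libraries, of which 8 were higher and 10 lower, the median was -0.12. The 6925 tested genes above 0 in all 6 libraries had a median of -0.19, and 40.6% of them were higher and 52.3% lower. Replicates varied little. Over the 14 carriers with at least 10 TPM in all 6 libraries, the coefficient of variation had a median of 2.79% in control and 3.78% in MT-treated blastocysts, and the largest values were 5.61% for SLC25A1 in control and 11.6% for SLC25A15 in MT-treated blastocysts.

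**Figure D2:**
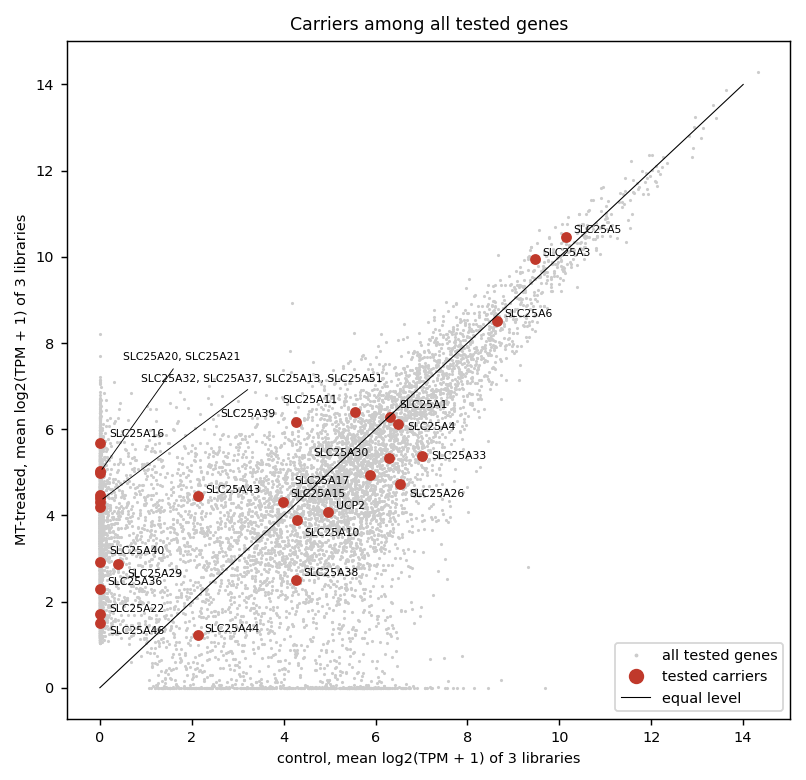
Mean log2(TPM + 1) of the 3 control libraries (horizontal) against that of the 3 MT-treated libraries (vertical), for 29 of the 30 tested carriers (red) and all 11953 tested genes (grey), with a line of equal level. SLC25A5, SLC25A3 and SLC25A6 lie near the line, and 10 carriers lie at 0 on the control axis within a dense column of other genes.

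The family was dominated by 3 genes. SLC25A5, SLC25A3 and SLC25A6 held ranks 1, 2 and 3 in every library and made up 76.5% to 76.6% of the summed carrier TPM in control and 78.6% to 79.2% in MT-treated libraries. The sum over all carriers was 2908 ± 21.0 TPM in control and 3489 ± 13.1 TPM in MT-treated blastocysts (SD, n = 3 each). As a share of all listed TPM this was 0.308% to 0.312% in control and 0.381% to 0.383% in MT-treated libraries. Below the leading genes the order differed. SLC25A33 held rank 4 and SLC25A26 rank 5 in each control library, whereas SLC25A11 held rank 4 and SLC25A1 rank 5 in each MT-treated library.

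Among the ADP/ATP carriers, the main isoform rose, while both less abundant ones fell in the fit as reported but not under every scaling. SLC25A5 (ENSBTAG00000046037), the isoform of proliferating cells, had 1130.3, 1121 and 1122 TPM in control and 1419, 1389 and 1408 TPM in MT-treated libraries. Every MT-treated value was above every control value, a log2 fold change of 0.32 ± 0.01 (SE, limma adjusted p = 2.76e-07) that median centring raised to 0.80. SLC25A6 (ENSBTAG00000047418), a broadly expressed isoform, had 401, 384 and 407 TPM in control and 366, 364 and 366 TPM in MT-treated libraries. The groups were apart by less than the range of the control values, and the log2 fold change was -0.12 ± 0.02 (SE, limma adjusted p = 0.00277).

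SLC25A4 (ENSBTAG00000013208), the isoform of heart and skeletal muscle, had 89.6, 90.03 and 86.1 TPM in control and 69.1, 67.7 and 68.4 TPM in MT-treated libraries, again without overlap. Its log2 fold change was -0.37 ± 0.02 (SE, limma adjusted p = 1.01e-05). The direction of both SLC25A6 and SLC25A4 flipped, to 0.36 and 0.11, when libraries were centred on the median of genes present in all of them, and after quantile normalization SLC25A4 was -0.10, and SLC25A6 was -0.02 and not called. A ratio within a library is not moved by centring, which scales all values of a library together. SLC25A5 made up 69.8% ± 0.422 of the ADP/ATP carrier TPM in control and 76.4% ± 0.115 in MT-treated blastocysts (SD, n = 3 each). SLC25A6 made up 24.7% ± 0.575 and 19.9% ± 0.121, and SLC25A4 5.50% ± 0.158 and 3.72% ± 0.00854, in control and MT-treated blastocysts respectively. None of these shares overlapped between the groups. Relative to SLC25A6, SLC25A5 was 2.76 to 2.92 times as abundant in control and 3.82 to 3.88 times in MT-treated libraries.

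SLC25A3 (ENSBTAG00000012890), the phosphate carrier, which also brings copper into mitochondria, had 705, 700.45 and 707 TPM in control and 988, 989 and 969 TPM in MT-treated libraries. All MT-treated libraries were higher, with a log2 fold change of 0.48 ± 0.01 (SE, limma adjusted p = 6.49e-08), or 0.96 after centring. Its ratio to the summed ADP/ATP carriers was 0.435 to 0.439 in control and 0.526 to 0.543 in MT-treated libraries. The phosphate carrier was thus higher in MT-treated blastocysts by this ratio as well.

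**Figure D3:**
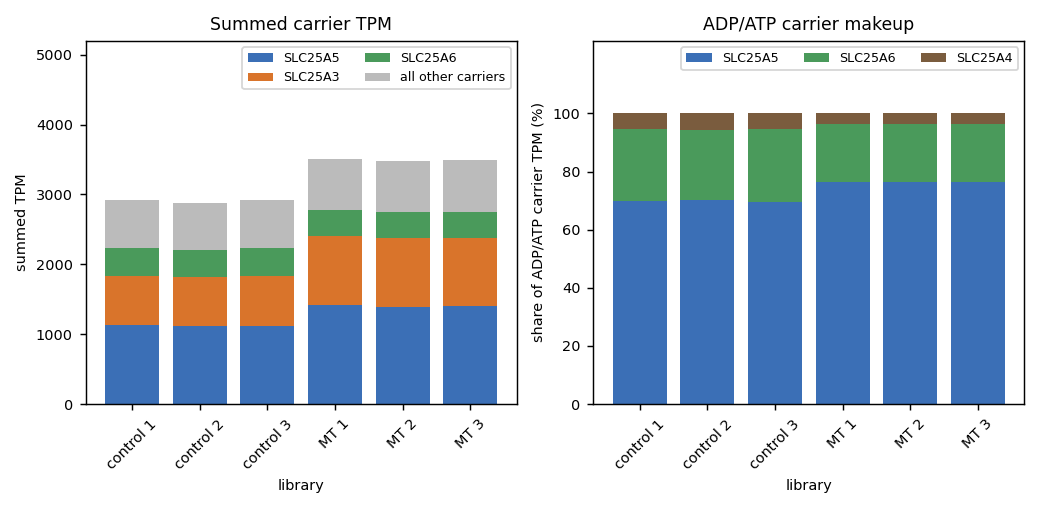
Left, summed TPM of all carriers in each library (vertical axis from 0), split into SLC25A5, SLC25A3, SLC25A6 and all other carriers. Right, percent of ADP/ATP carrier TPM taken by SLC25A5, SLC25A6 and SLC25A4 in each library. The sums average 2908 TPM in control and 3489 TPM in MT-treated libraries, and the SLC25A5 part of the ADP/ATP carriers is larger in each MT-treated library.

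Of the uncoupling-type carriers, 2 could be tested and both fell, where 34.1% of all tested genes were lower. UCP2 (ENSBTAG00000003692), which is known to export four-carbon intermediates and to lower reactive oxygen species, had 30.3, 28.9 and 32.0 TPM in control and 15.8, 15.0 and 16.6 TPM in MT-treated libraries. The groups did not overlap, and the log2 fold change was -0.90 ± 0.05 (SE, limma adjusted p = 4.81e-06), with -0.42 after median centring and -1.40 after quantile normalization. SLC25A30 (ENSBTAG00000016529), first described in kidney, had 78.3, 75.3 and 77.8 TPM in control and 37.1, 42.1 and 39.1 TPM in MT-treated libraries. It was lower in each MT-treated library, with a log2 fold change of -0.95 ± 0.05 (SE, limma adjusted p = 2.62e-06) that was -0.47 after centring. SLC25A27, a brain uncoupling protein, was at 0 in control and at 0.06, 0.04 and 0.04 TPM in MT-treated libraries, too low for the test. UCP1, the uncoupling protein of brown fat, and UCP3, that of muscle, lie outside the rule and were at 0 in all 6 libraries.

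The carriers of the citric acid cycle moved unequally. SLC25A1 (ENSBTAG00000008528), which exports citrate for lipid synthesis, had 83.9, 75.2 and 78.2 TPM in control and 79.4, 73.6 and 78.0 TPM in MT-treated libraries. The groups overlapped, and the log2 fold change of -0.04 ± 0.05 (SE, limma adjusted p = 0.472) was not called, though it was 0.44 and called after median centring and 0.24 and called after quantile normalization. SLC25A11 (ENSBTAG00000004910), the oxoglutarate-malate carrier, had 44.9, 44.98 and 46.9 TPM in control and 84.8, 81.5 and 82.1 TPM in MT-treated libraries. Each MT-treated value was well above the control values, a log2 fold change of 0.85 ± 0.03 (SE, limma adjusted p = 2.81e-07), or 1.33 after centring.

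SLC25A10, the dicarboxylate carrier, went the other way, from 17.6, 18.8 and 19.4 TPM in control to 13.5, 13.4 and 14.5 TPM in MT-treated libraries. The log2 fold change was -0.40 ± 0.05 (SE, limma adjusted p = 0.000256), and it was 0.08 and not called after median centring and -1.40 after quantile normalization. The ratio of SLC25A11 to SLC25A10 within a library was 2.39 to 2.55 in control and 5.65 to 6.26 in MT-treated libraries. SLC25A20 (ENSBTAG00000000191), which carries acylcarnitines in for fatty acid oxidation, was at 0 in each control library, against 31.8, 31.2 and 32.0 TPM in MT-treated ones. SLC25A21, the oxodicarboxylate carrier of lysine breakdown, was likewise at 0 throughout control, and MT-treated libraries had 29.8, 31.7 and 30.3 TPM.

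Among 7 amino acid carriers in the table, 6 were tested, of which 4 were higher and 2 lower, beside 61.6% and 34.1% of all tested genes. Of the aspartate-glutamate carriers, which the malate-aspartate shuttle needs, SLC25A13 (ENSBTAG00000003773) was at 0 in each control library, against 17.5, 20.1 and 18.7 TPM in MT-treated ones. SLC25A12 (ENSBTAG00000016762) was at 0 in control and at 0.50, 0.49 and 0.44 TPM in MT-treated libraries, below the level tested. No control library therefore listed either aspartate-glutamate carrier above 0. SLC25A38 (ENSBTAG00000022721), the glycine carrier of heme synthesis, fell from 18.8, 17.5 and 18.2 TPM in control to 4.34, 4.78 and 4.98 TPM in MT-treated libraries. The groups were far apart, with a log2 fold change of -1.75 ± 0.05 (SE, limma adjusted p = 1.82e-07), with -1.27 after median centring and -3.11 after quantile normalization.

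SLC25A29 (ENSBTAG00000013666), which carries basic amino acids, had 0.29, 0.33 and 0.35 TPM in control and 6.41, 5.95 and 6.52 TPM in MT-treated libraries. This was a log2 fold change of 2.46 ± 0.04 (SE), which was 3.92 with a pseudocount of 0.1 and turned to -0.56 after quantile normalization. SLC25A44 (ENSBTAG00000009431), the carrier of branched-chain amino acids, had 3.66, 3.31 and 3.13 TPM in control and 1.42, 1.43 and 1.12 TPM in MT-treated libraries. It was lower in each MT-treated library, with a log2 fold change of -0.91 ± 0.07 (SE, limma adjusted p = 2.88e-05), but the value was -0.43 with centred and -2.41 with quantile-normalized libraries. SLC25A15, the ornithine carrier of the urea cycle, had 14.7, 15.0 and 15.1 TPM in control and 16.8, 18.4 and 21.1 TPM in MT-treated libraries, and SLC25A22, a glutamate carrier, had 0 in control and 2.23, 2.45 and 2.17 TPM in MT-treated libraries. SLC25A15 was called as higher by limma with a log2 fold change of 0.31 and an adjusted p of 0.00936, which was 0.79 after median centring and -0.15 and not called after quantile normalization. SLC25A22 was at -0.25 after quantile normalization.

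The cofactor carriers held both large falls and genes at 0 in control. SLC25A26 (ENSBTAG00000037972), which imports S-adenosylmethionine, the methyl donor of mitochondrial methylation, had 91.9, 92.8 and 91.04 TPM in control and 27.7, 24.3 and 24.6 TPM in MT-treated libraries. The fall was seen in each library, with a log2 fold change of -1.81 ± 0.05 (SE, limma adjusted p = 1.30e-07). SLC25A17 (ENSBTAG00000006200), a carrier of the peroxisome for coenzyme A and related cofactors, had 60.4, 57.9 and 55.9 TPM in control and 28.7, 30.9 and 29.6 TPM in MT-treated libraries. The groups did not overlap, and the log2 fold change was -0.94 ± 0.04 (SE, limma adjusted p = 1.04e-06) and -0.46 after centring.

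A further 4 cofactor carriers were at 0 in each control library. SLC25A16, linked to coenzyme A, was at 51.8, 50.8 and 49.3 TPM in MT-treated libraries. SLC25A32, which carries folate and FAD, had 16.5, 23.5 and 24.4 TPM, the first MT-treated library being the lowest. SLC25A51, the carrier of NAD, had 17.0, 16.8 and 18.1 TPM, and SLC25A42, a coenzyme A carrier, only 0.03, 0.03 and 0.05 TPM.

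Of the pyrimidine nucleotide carriers, which supply the mitochondrial genome and its transcripts with precursors, SLC25A33 (ENSBTAG00000003177) had 121, 131 and 134 TPM in control and 40.4, 39.5 and 42.9 TPM in MT-treated libraries. It held rank 4 of all carriers in control, and it fell in each MT-treated library by 1.63 on the log2 scale (SE 0.05, limma adjusted p = 1.84e-07). SLC25A36 (ENSBTAG00000015310) was at 0 in each control library, against 3.56, 4.42 and 3.78 TPM in MT-treated ones, and was not called after quantile normalization. SLC25A33 made up 89.9% to 91.9% of the pair in the MT-treated libraries, and the total for both was 128.9 ± 7.04 TPM in control and 44.8 ± 1.56 TPM in MT-treated blastocysts (SD, n = 3 each).

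The mitoferrin SLC25A37 (ENSBTAG00000019099), which imports iron, had 0, 0.02 and 0 TPM in control and 20.4, 19.9 and 20.1 TPM in MT-treated libraries, a log2 fold change of 4.39 ± 0.03 (SE) that was 7.57 with a pseudocount of 0.1 and 2.91 after quantile normalization. The other mitoferrin, SLC25A28, was at 0 throughout. Of the carriers linked to mitochondrial glutathione, SLC25A39 (ENSBTAG00000019463) had 17.4, 17.9 and 19.2 TPM in control and 71.2, 68.5 and 71.2 TPM in MT-treated libraries. All MT-treated values were more than 3-fold above the control values, with a log2 fold change of 1.90 ± 0.04 (SE, limma adjusted p = 3.72e-08). SLC25A40 (ENSBTAG00000054987) was at 0 in each control library, against 6.71, 6.37 and 6.77 TPM in MT-treated ones. Together the glutathione carriers summed to 18.2 ± 0.936 TPM in control and 76.9 ± 1.78 TPM in MT-treated blastocysts (SD, n = 3 each).

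Among carriers with little-known substrates, SLC25A43 (ENSBTAG00000001007) had 4.05, 3.48 and 2.7 TPM in control and 19.4, 21.4 and 21.7 TPM in MT-treated libraries. The groups did not overlap, and the log2 fold change was 2.32 ± 0.12 (SE, limma adjusted p = 2.61e-06), or 1.3 after quantile normalization. SLC25A46, a protein of the outer membrane that acts in mitochondrial shape, was at 0 in each control library, against 2.21, 1.68 and 1.61 TPM in MT-treated ones, but its direction turned, to -0.36, after quantile normalization. SLC25A53 did not exceed 0.10 TPM in any library.

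**Figure D4:**
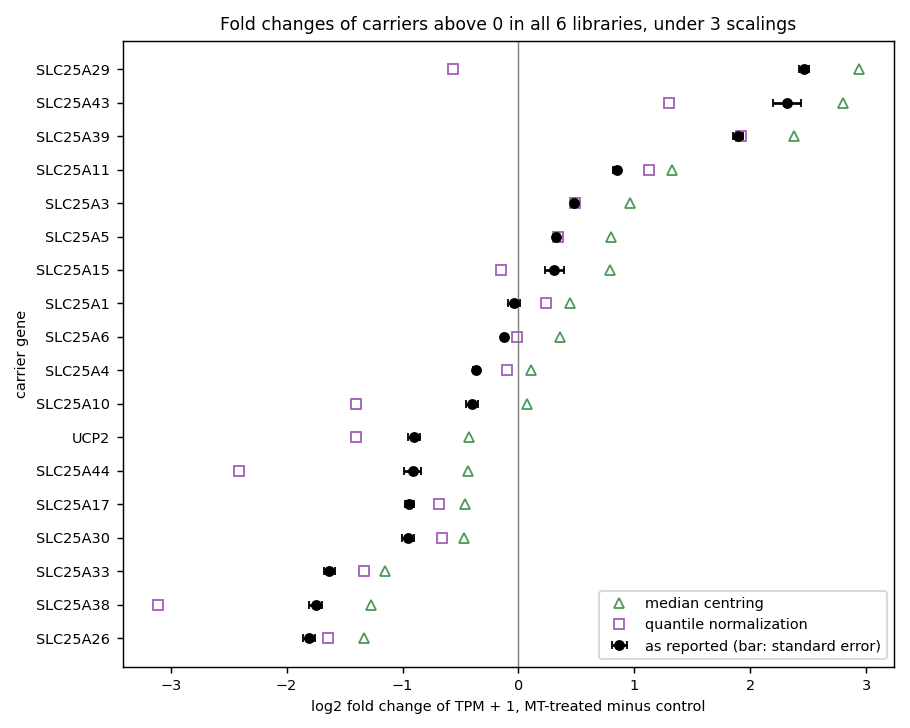
Log2 fold change of TPM + 1 (MT-treated minus control, horizontal) for 18 of the 19 carriers above 0 in all 6 libraries (rows), as reported with its standard error (black), after median centring (green triangles) and after quantile normalization (purple squares). Of these 18, SLC25A26, SLC25A38 and SLC25A33 stay well below 0 and SLC25A39, SLC25A43 and SLC25A11 well above it under all 3 scalings, while SLC25A6, SLC25A4, SLC25A1, SLC25A10, SLC25A15 and SLC25A29 cross it under at least 1.

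The scaling between libraries decided the direction of some carriers. Median centring raised the median of all tested genes by 0.48 on the log2 scale, and then 22 carriers were higher and 7 lower, while quantile normalization, which moved that median by -1.08, gave 14 higher and 12 lower. Higher carriers made up 65.5% of called carriers as reported, 75.9% after median centring and 53.8% after quantile normalization. Of all tested genes, 70.4% were higher and 25.4% lower after median centring, and 46.4% and 44.4% after quantile normalization. Under each of the 14 alternatives in which it could be tested, the call and direction held for 20 of the 30 carriers, 13 of them higher and 7 lower. The share, 66.7%, lies near the 69.0% of all tested genes whose call and direction held. Of the 18 carriers at 1 TPM or more in a library of each group it was 12, with 5 higher and 7 lower, beside 65.8% of the 6210 such genes. The 7 lower ones were SLC25A26, SLC25A38, SLC25A33, SLC25A30, SLC25A17, SLC25A44 and UCP2. The 13 higher ones were SLC25A5, SLC25A3, SLC25A11, SLC25A39, SLC25A43, SLC25A37 and 7 of the carriers at 0 in every control library (SLC25A13, SLC25A16, SLC25A20, SLC25A21, SLC25A32, SLC25A40 and SLC25A51). SLC25A37 and those 7 entered the fit only through MT-treated libraries.

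Genes that work beside the carriers were counted from lists put together by function. Those given with values are the highest rise and, where any gene fell, the largest fall of each list, so they are not typical of it. Of all tested genes, 61.6% were higher and 34.1% lower, with a median log2 fold change of 1.12, and the counts are read beside these. Both tested relatives of the family, MTCH1 and MTCH2, outer membrane proteins with a carrier fold, were higher. MTCH1 had 9.79, 10.4 and 9.83 TPM in control and 22.5, 24.2 and 22.7 TPM in MT-treated libraries, a log2 fold change of 1.13 ± 0.04 (SE, limma adjusted p = 4.91e-07). Of 16 tested mitochondrial channels and other transporters, 6 were higher and 10 lower, with a median log2 fold change of -0.18. MCU, the pore of the mitochondrial calcium uniporter, had 67.2, 64.9 and 62.2 TPM in control and 2.35, 1.67 and 2.13 TPM in MT-treated libraries, a log2 fold change of -4.44 ± 0.09 (SE, limma adjusted p = 2.27e-08). Its inhibitory paralog MCUB was at 0 in each control library, against 15.7, 16.3 and 15.7 TPM in MT-treated ones.

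Carrier proteins enter the inner membrane through the TIM22 complex, guided by TOMM70 and small chaperones of the space between the membranes. Of 7 genes of this route, 2 were higher and 4 lower, where 61.6% and 34.1% of all tested genes were, and the median log2 fold change was -0.18, beside 1.12 over all. AGK, a subunit of the complex, had 19.2, 19.4 and 19.7 TPM in control and 4.41, 4.74 and 3.93 TPM in MT-treated libraries, a log2 fold change of -1.93 ± 0.06 (SE, limma adjusted p = 1.93e-07). TIMM29, another subunit, was at 0 in each control library, against 12.9, 15.9 and 13.1 TPM in MT-treated ones. Among 6 enzymes of the malate-aspartate and glycerol phosphate shuttles, 2 were higher and 3 lower, with a median log2 fold change of -0.25, against the same shares and median of all tested genes. GPD2, the mitochondrial enzyme of the glycerol phosphate shuttle, fell from 174, 171 and 162 TPM in control to 20.7, 21.1 and 20.3 TPM in MT-treated libraries, a log2 fold change of -2.97 ± 0.03 (SE, limma adjusted p = 2.26e-09). Its cytosolic partner GPD1 was at 0 in each control library, against 10.4, 8.35 and 11.1 TPM in MT-treated ones.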

How the data were processed

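The 6 libraries, 3 control and 3 MT-treated, were grouped by their sample labels. The authors deposited TPM per gene, rounded to 2 decimals, and how counts became TPM is not given in the sources used here. The labels and the study's methods name FastQC 0.11.9, STAR 2.7.9a and featureCounts (Subread 1.6.3). The methods name the genome ARS-UCD1.3 and the labels ARS-UCD1.2, and the methods name Smart-seq2 where the labels name a TruSeq kit. How reads shared by near-identical genes were counted, and whether strand was used, is not given in the sources used here, so values of genes with close copies are uncertain.

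TPM were transformed to log2(TPM + 1). Every gene that reached 1 TPM in 3 or more libraries entered lmFit and a trended eBayes (limma 3.58.1, R 4.3.3), with p-values adjusted by Benjamini-Hochberg over 11953 genes at a threshold of 0.05. Fold changes are on the log2(TPM + 1) scale, which understates changes of low genes, and none is printed for a gene at 0 in every control library, except where quantile normalization turned it. Replicates are pools from separate production runs, per the study's methods. No interval for counting error can be given. Figures used Python 3.11.15 and matplotlib 3.10.9. All 45 symbols were found in the RefSeq gene table of ARS-UCD2.0, which was used for names only. On simulated data, the fit recovered 197 of 200 changed genes among 11953 and made 6 false calls. The simulated levels were raised away from 0 and few genes were changed, unlike in these data, so this gives no error rate for them.

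Carriers were named and grouped by substrate, except 1 that enters the counts and sums but is not reported here singly. Values in every library were required, with fold change and error except for genes at 0 in every control library, for the 10 most abundant carriers, the 6 highest and 6 lowest fold changes among carriers above 0 in both groups, carriers at 0 in control with at least 10 TPM under MT, and 5 sets of paralogs. Carriers, lists and tests were chosen with earlier results of these data known. Alternatives changed the pseudocount (0.1), the filter (none, or a minimum of 5 TPM), the scaling (quantile normalization, or centring on the median of genes at 1 TPM or more in all libraries) and the trend, added a replicate block, or left out each library. After seeing the data, a fit of only those genes above 0 in all 6 libraries was added. SMDT1, a listed transporter gene, was not analysed here.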

Additional observations from a re-analysis of the deposited data

How the results depend on the processing

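The counts of 19 higher and 10 lower carriers, and the call of every tested carrier, were the same with a pseudocount of 0.1, without the trend, with a replicate block (19 higher, 10 lower, median log2 fold change 1.08) and without each library in turn (19 higher and 10 lower in each, median 1.05 to 1.10). Per the study's methods both groups were made side by side in each production run, but the sources used here tie no replicate number to a run. The numbers were not taken as pairs, since deviations from the group means correlated at -0.0115, -0.000679 and 0.0588 for numbers 1, 2 and 3. The median log2 fold change of 1.08 moved to 1.15 with a pseudocount of 0.1, 0.52 without a filter (34 carriers tested), 0.66 at a minimum TPM of 5 (26 tested), 0.0093 with quantile normalization and 1.56 with median centring. Among genes above 0 in all 6 libraries the median was -0.12 and 8 carriers were higher, because that restriction leaves out the carriers at 0 in control. Median centring turned SLC25A6 (0.36), SLC25A4 (0.11), SLC25A1 (0.44) and SLC25A10 (0.077). Carriers turned by quantile normalization included SLC25A1 (0.24), SLC25A15 (-0.15), SLC25A29 (-0.56), SLC25A22 (-0.25) and SLC25A46 (-0.36). Quantile normalization gives the many genes tied at 0 in a control library, SLC25A22 and SLC25A46 among them, one shared value above 0. Low MT-treated values can fall below that value. SLC25A1, SLC25A15 and SLC25A29 were above 0 in each control library, and why any of these carriers turned was not tested. The summed carrier TPM, 581 higher in MT-treated blastocysts, was 370 higher over carriers at 1 TPM or more in all libraries and 718 higher after scaling the listed genes of each library to one fixed total, with 569 to 588 without each library in turn. The SLC25A5 share of the ADP/ATP carriers, 6.60 percentage points higher, lay between 6.42 and 6.83. TPM keeps no counts, so no counting error can be given for values near 0.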
